A study of Mus musculus with 4 samples.

Results

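The early mevalonate pathway enzymes were described here as 8 genes, from acetyl-CoA to farnesyl and geranylgeranyl diphosphate: Acat2, Hmgcs1, Mvk, Pmvk, Mvd, Idi1, Fdps and Ggps1. They were taken by gene symbol, each symbol matched 1 row, and they are 8 of the 32285 genes in the deposited matrices. The rule names the genes by symbol and sets no threshold on their values, but they were proposed with earlier results of these data known. The cells came from the lymph nodes draining a tumor in wildtype mice, taken on day 8 after the tumor cells were injected. Both groups carried the tumor and differed by their chow. One was fed control chow, and the other was fed RGX-104, which activates the liver X receptors (LXR), in its chow from day 3 onwards. Flow cytometry collected T cells along with antigen-presenting cells (APCs), which were sequenced with the 10x 5' method, which counts each captured transcript once by its unique molecular identifier (UMI). Each chow is 1 RNA library, with the number of mice in it and the tumor line not given in the sources used here. Library, mouse and chow therefore cannot be told apart, and all intervals below are 95% intervals of counting error only.

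The mevalonate pathway makes isoprenoids, the building units of cholesterol, dolichol, ubiquinone and the lipid anchors of small GTPases. Its genes are switched on by SREBP-2 (gene Srebf2) when cholesterol in the endoplasmic reticulum is low, while LXR senses oxysterols and drives cholesterol export through Abca1 and Abcg1. Proliferating lymphocytes are known to need the pathway for new membrane and for protein prenylation.

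The genes lie on 5 chromosomes of GRCm38.p6, the assembly behind mm10, and all are annotated as protein-coding. Acat2 (ENSMUSG00000023832, chr17:12943042-12960725) begins the pathway by joining acetyl-CoA units, and Hmgcs1 (ENSMUSG00000093930, chr13:119690351-119708260) makes HMG-CoA. Mvk (ENSMUSG00000041939, chr5:114444264-114460591) and Pmvk (ENSMUSG00000027952, chr3:89454541-89469014) are the kinases that phosphorylate mevalonate in turn. Mvd (ENSMUSG00000006517, chr8:122433596-122443422) decarboxylates the product to isopentenyl diphosphate, which Idi1 (ENSMUSG00000058258, chr13:8885606-8892396) isomerises to dimethylallyl diphosphate. Fdps (ENSMUSG00000059743, chr3:89093588-89101967) builds farnesyl diphosphate, the branch point to squalene. Ggps1 (ENSMUSG00000021302, chr13:14049790-14063566) extends it to geranylgeranyl diphosphate, away from the sterol branch. Acat2, Mvd and Fdps each overlap 1 other RefSeq gene model. Acat3, a close copy of Acat2, lies beside it and had 10 UMIs in APCs and 11 in T cells over both libraries. Whether counts of these genes include reads of their neighbours was not tested.

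Promoter sequence is shown because 7 of the genes shared a direction of difference and Ggps1 did not. RefSeq promoter entries matched 7 of the 8 genes, with none for Fdps. In the 250 bases upstream of the start, the sterol regulatory element TCACNCCAC, the classical SREBP recognition sequence, was present in 1 of the 7, Hmgcs1, and in 1.05% of all 32851 promoters. There it reads TCACCCCAC and spans bases 137 to 129 before the start. The CCAAT box (CCAAT, bound by NF-Y) was present in 6 of the 7 against 33.8% of all promoters, and the GC box GGGCGG in 5 against 32.7%. The 7 are counted by gene, with a match at any listed start, and the shares by promoter entry. All motifs were searched on both strands, and these matches overlapped none of the others. The sequences below run 5' to 3' in the gene's direction, with TCACNCCAC and CCAAT matches of either strand in capitals. Hmgcs1 is shown for its sterol element and Idi1 for the largest ratio in T cells. Mvd had a large ratio in both APCs and T cells, and Ggps1 had none. Coordinates are chr13:119690101-119690350 on the plus strand for Hmgcs1 and chr13:8885356-8885605 on the plus strand for Idi1. Those of Mvd are chr8:122443423-122443672 and those of Ggps1 chr13:14063489-14063738, both on the minus strand. The Ggps1 gene model reaches 14063566, so the part of its sequence nearest the start lies within that model. Its CCAAT match nearest the start falls in this part.
Hmgcs1: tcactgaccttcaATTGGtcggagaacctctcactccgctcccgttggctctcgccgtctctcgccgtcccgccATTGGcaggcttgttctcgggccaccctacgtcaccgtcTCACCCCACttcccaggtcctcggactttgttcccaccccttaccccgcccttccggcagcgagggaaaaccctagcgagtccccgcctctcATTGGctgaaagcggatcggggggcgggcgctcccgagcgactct
Idi1: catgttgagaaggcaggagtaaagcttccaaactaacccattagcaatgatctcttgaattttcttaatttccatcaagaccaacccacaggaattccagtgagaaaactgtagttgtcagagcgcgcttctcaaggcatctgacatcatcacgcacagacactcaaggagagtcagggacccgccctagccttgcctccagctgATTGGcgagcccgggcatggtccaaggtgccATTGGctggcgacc
Mvd: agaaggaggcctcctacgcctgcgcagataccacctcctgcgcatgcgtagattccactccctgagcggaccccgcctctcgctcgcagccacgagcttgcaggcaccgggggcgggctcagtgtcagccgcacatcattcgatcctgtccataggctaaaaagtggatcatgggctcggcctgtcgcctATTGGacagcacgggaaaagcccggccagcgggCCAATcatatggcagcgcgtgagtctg
Ggps1: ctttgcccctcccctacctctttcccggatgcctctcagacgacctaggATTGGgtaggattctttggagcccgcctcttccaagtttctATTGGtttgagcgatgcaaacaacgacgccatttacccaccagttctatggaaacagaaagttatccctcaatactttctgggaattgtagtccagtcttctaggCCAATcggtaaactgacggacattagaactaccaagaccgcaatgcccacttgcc
Hmgcs1 holds 3 CCAAT matches, Idi1 2, Mvd 2 and Ggps1 3, so Ggps1 shared these letters with genes that differed. The GC box was in Acat2, Hmgcs1, Mvk, Mvd and Idi1, and in neither Ggps1 nor Pmvk. Of CCAAT matches, Mvk held 5 and the first of 2 Pmvk starts held 1, while Acat2 held none.

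The control library held 7346 barcodes and 31530931 UMIs, and the RGX-104 library 8671 barcodes and 38480769 UMIs. The authors annotated 2881 and 2944 of these as cells, and 95 barcode sequences occurred in both libraries. Annotated APCs numbered 782 and 949, with a median of 8052 and 9043 UMIs, and T cells 2099 and 1995, with a median of 4944 and 5048. A cell counts here as a T cell or an APC by the authors' annotation that lists it. Levels are given in CPM, counts of a gene divided by the summed UMIs of the cells and scaled as usual. The summed T cell markers stood at 4320 and 3857 CPM in T cells and at 41.6 and 38.7 CPM in APCs. The annotation may rest on the same counts, so these values describe the labels and do not check them. Within the APCs, pDC markers were lower in the RGX-104 library (1569 against 489 CPM, all 10 genes), macrophage markers higher (194 against 574 CPM) and neutrophil markers higher (14.0 against 177 CPM). In the T cells, erythroid markers stood at 120 CPM in the control library and 0.0884 CPM in the RGX-104 library, with 5 and 1 of 6 genes detected. The part of these differences in pooled values was not tested.

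In pooled APCs, 7 of the 8 enzymes were higher in the RGX-104 library with intervals above 1, and Ggps1 stood at nearly the same level in both. The share of all genes with an interval above 1 is not given, here or for later counts of intervals. Of the 8, 6 were at least 1.5-fold higher and none was lower by that much, while 4.14% of the 10346 genes with at least 50 UMIs were higher and 4.44% lower. The summed level of the 8 was 360 CPM in the control library. It was 647 CPM with RGX-104, which is 1.80-fold (1.72 to 1.88) the control level. The median log2 ratio of the 8 was 0.74, against -0.06 over all tested genes.

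Acat2, the entry enzyme, was the least sampled, with 26 control and 60 RGX-104 UMIs, or 3.56 and 6.03 CPM (ratio 1.69, 1.05 to 2.80). Hmgcs1, HMG-CoA synthase, had 435 and 982 UMIs, or 59.5 and 98.6 CPM (ratio 1.66, 1.48 to 1.86). Acat2 and Hmgcs1, which work in sequence, thus had nearly equal ratios in APCs, with a far wider interval for Acat2.

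Mvk, the first kinase, had 79 and 155 UMIs, or 10.8 and 15.6 CPM, and its ratio of 1.44 (1.09 to 1.91) was below 1.5. Its log2 ratio of 0.53 became 0.59 with TMM or median-of-ratios factors, 0.69 with thinned cells, 0.63 without macrophages and pDC and 1.16 as the mean over types, all past 1.5-fold. Other alternatives lowered it, to 0.50 with per-cell means and 0.34 in cells with both cell cycle scores under 0. Among APCs that the authors' table calls G1, the Mvk ratio was 1.26, with an interval (0.934 to 1.72) that included 1. Pmvk, the second kinase, had 519 and 1235 UMIs, or 71.0 and 124 CPM (ratio 1.75, 1.58 to 1.94). Mvd, the decarboxylase, had 103 and 300 UMIs, or 14.1 and 30.1 CPM (ratio 2.14, 1.70 to 2.70). The interval of Mvd overlapped that of Pmvk and lay above that of Mvk only in part.

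Idi1, the isomerase, had 705 and 1459 UMIs, or 96.4 and 147 CPM, and its ratio of 1.52 was only just past 1.5. Its log2 ratio of 0.60 became 1.44 as the mean over types, and fell short of 1.5-fold with per-cell means (0.57) and without macrophages and pDC (0.58). Fdps, farnesyl diphosphate synthase, had 595 and 2028 UMIs, or 81.4 and 204 CPM. Its ratio of 2.50 (2.28 to 2.75) was the highest of the 8 in APCs. Ggps1, at the branch to geranylgeranyl diphosphate, had 167 and 224 UMIs, or 22.9 and 22.5 CPM, with a ratio of 0.985 (0.802 to 1.21). Fdps and Ggps1 make successive products, and the control and RGX-104 levels were far apart for the former and nearly equal for the latter.

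In pooled T cells the same 6-of-8 count held. Ratios were above those in APCs for Hmgcs1, Idi1 and Fdps with intervals that did not overlap. For Mvk, Pmvk and Mvd they were above with overlapping intervals. Here 2.92% of 10214 tested genes were at least 1.5-fold higher and 1.66% lower. At 2-fold, 5 of the 8 were higher against 0.871% of all genes, where in APCs 2 were against 1.52%. The summed level was 143 CPM in the control and 331 CPM in the RGX-104 library (ratio 2.31, 2.18 to 2.45), and the median log2 ratio was 1.16 against -0.01 over all genes. Whether ratios in T cells and APCs differ beyond the spread between libraries could not be tested with 1 library per chow.

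Acat2 had 82 and 112 UMIs in T cells, or 7.15 and 9.90 CPM (ratio 1.38, 1.03 to 1.86). Hmgcs1 had 243 and 731 UMIs, or 21.2 and 64.6 CPM, a ratio of 3.05 (2.63 to 3.54). Both were thus higher in the RGX-104 library, Acat2 by less than 1.5-fold.

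Mvk had 77 and 153 UMIs, or 6.72 and 13.5 CPM (ratio 2.01, 1.52 to 2.68). Pmvk had 153 and 290 UMIs, or 13.3 and 25.6 CPM (ratio 1.92, 1.57 to 2.35). Mvd had 70 and 171 UMIs, or 6.11 and 15.1 CPM (ratio 2.48, 1.86 to 3.32). The intervals of Mvk, Pmvk and Mvd overlapped, so counting error does not order these steps.

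Idi1 had 157 and 738 UMIs, or 13.7 and 65.2 CPM, a ratio of 4.76 that was the highest of the 8 in T cells. Fdps had 256 and 990 UMIs, or 22.3 and 87.5 CPM (ratio 3.92, 3.41 to 4.51). Ggps1 had 603 and 560 UMIs, or 52.6 and 49.5 CPM, with a ratio of 0.941 (0.837 to 1.06). Because Ggps1 supplied 603 of the 1641 control UMIs of the 8 in T cells, the other 7 summed to 90.5 and 282 CPM (ratio 3.11, 2.90 to 3.34). In APCs, where Ggps1 was a small share, the sum of the 7 gave 1.85 against 1.80 for the 8.

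**Figure D1:**
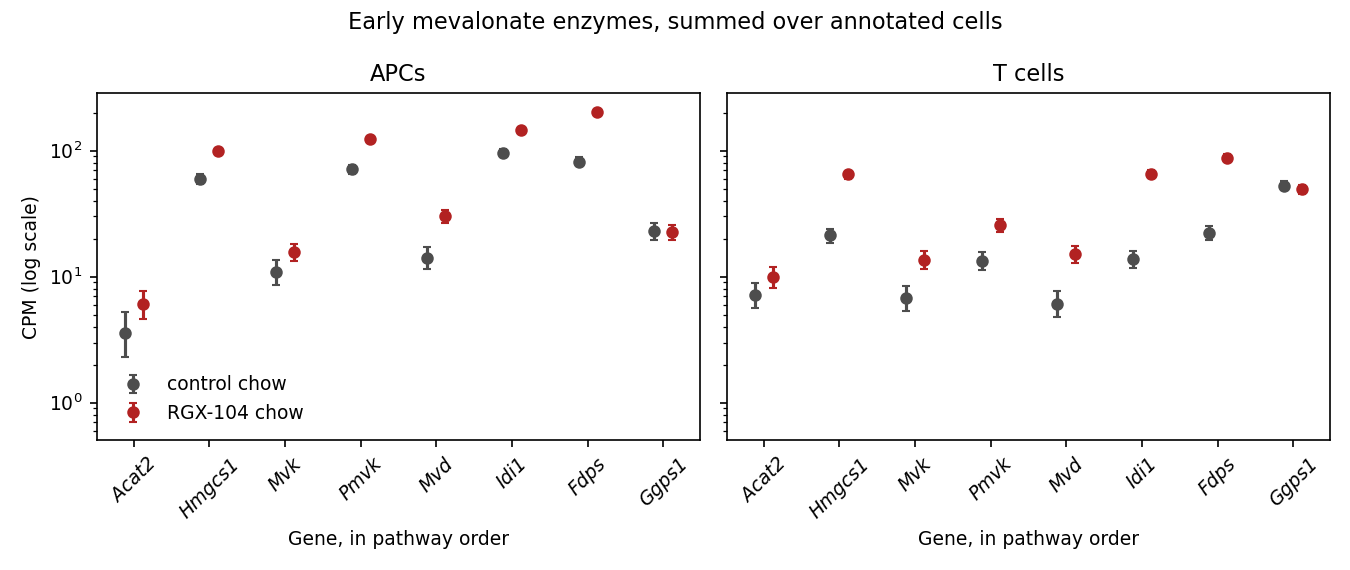
Level of each enzyme in CPM (log axis) in pooled APCs and pooled T cells of the control (grey) and RGX-104 (red) library, with 95% Poisson intervals, 1 library per chow. The red point lies above the grey one for every enzyme but Ggps1, whose points stand at 22.9 and 22.5 CPM in APCs and 52.6 and 49.5 CPM in T cells.

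The authors' tables name 10 APC types and 12 T cell types without spelling the names out. Comparison was limited to those with 50 cells or more on both chows, 6 of the APCs and 8 of the T cells. The chemokine receptor Ccr7, a marker of dendritic cells that have matured and moved to the node, separated the APC types. It stood at 3563 control and 3187 RGX-104 CPM in mcDC1, 3207 and 3619 CPM in mcDC2, and 3912 and 3726 CPM in mLC. In rcDC1 it was 69.6 and 96.3 CPM, in rcDC2 375 and 439 CPM, and in mono 164 and 160 CPM. Xcr1 and Clec9a, markers of conventional type 1 dendritic cells, led in rcDC1 (297 and 335 CPM in the control library). In control mcDC1 they stood at only 4.17 and 16.0 CPM, from 6 and 23 UMIs. Lyz2, a myeloid lysozyme, reached 13652 and 16285 CPM in mono.

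In the control library the summed level of the 8 enzymes was highest in mcDC1 at 721 CPM (678 to 767). Next came mLC at 605 CPM and mcDC2 at 546 CPM, whose intervals overlapped. Every other compared type was below 200 CPM, from Treg at 198 CPM and rcDC1 at 184 CPM down to mono at 107, CD8_03 at 99.7 and rcDC2 at 96.7 CPM. Among these lower types each interval overlapped that of the next in order. The Ccr7-high APC types thus stood above all other compared types in the library without agonist.

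In the RGX-104 library the same 3 types led, mcDC1 at 1114 CPM, mLC at 831 CPM and mcDC2 at 722 CPM, the last 2 with overlapping intervals. Treg followed at 584 CPM, then rcDC1 at 484 CPM. The middle of the order held Th1_01 at 386, mono at 384, Tfh at 360 and rcDC2 at 359 CPM, with overlapping intervals from each to the next. The lowest were CD8_01 at 272 CPM and CD8_03 at 220 CPM, whose intervals did not overlap.

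The summed level was higher in the RGX-104 library in all 14 types, each with an interval above 1. Ratios were smallest in the types that stood highest: 1.54 (1.43 to 1.66) in mcDC1, 1.37 (1.24 to 1.53) in mLC and 1.32 (1.14 to 1.54) in mcDC2. They were 2.63 (2.35 to 2.95) in rcDC1, 3.71 (2.91 to 4.80) in rcDC2 and 3.61 (2.70 to 4.88) in mono. T cell types lay between 2.13 in CD8_01 and 2.98 in Tfh, with Treg at 2.95. Ggps1, which hardly differed, was an unequal share of these sums. It supplied 139 of the 344 control UMIs of the 8 in CD8_01, 16 of 88 in Tfh and 46 of 404 in rcDC1. Sums without Ggps1 are not given by type, so the order of these ratios holds for the 8 together only.

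On the scale of differences in CPM the order was not the same. The RGX-104 library exceeded the control by 392 CPM (329 to 456) in mcDC1, more than the 300 CPM (268 to 332) in rcDC1. The difference was 226 CPM in mLC and 176 CPM in mcDC2, against 262 CPM in rcDC2 and 278 CPM in mono. Among T cells it ran from 120 CPM (88.3 to 152) in CD8_03 to 386 CPM (313 to 459) in Treg. The small ratio of mcDC1 thus went with the largest difference of the 14 types, next to Treg.

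**Figure D2:**
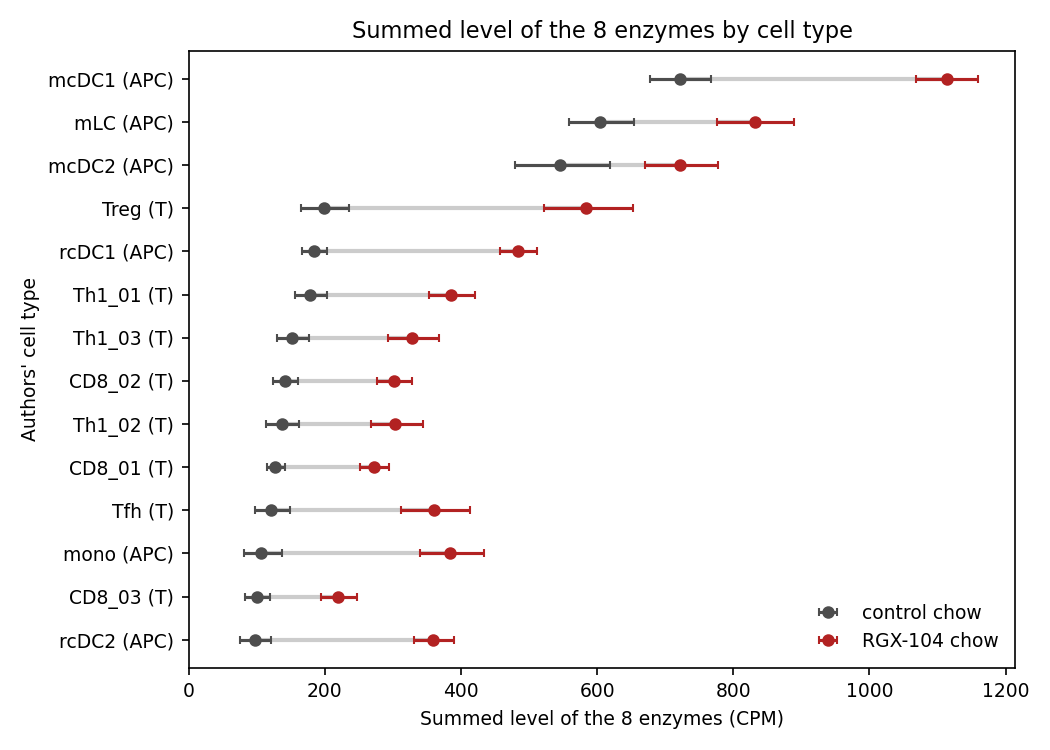
Summed level of the 8 enzymes (CPM, linear axis from 0) in each of the authors' 14 cell types with at least 50 cells per library, control in grey and RGX-104 in red, with 95% Poisson intervals and ordered by the control level. mcDC1, mLC and mcDC2 stand at 546 to 721 CPM in the control library, all other types below 200 CPM, and every red point lies to the right of its grey point.

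Of the 112 pairs of enzyme and type, 95 had at least 20 UMIs, and in 63 of these the RGX-104 level exceeded control by 1.5-fold or more. Mvk in mLC was lower by that much (9.04% of all genes were in mLC), and 59 had an interval above 1 and none below 1. No share of all genes stands beside these counts of intervals. By type, the count of measured enzymes at least 1.5-fold higher was 3 of 8 in mcDC1 (7.78% of all genes there), 3 of 7 in mLC (7.42%) and 1 of 6 in mcDC2 (10.3%). It was 5 of 7 in rcDC1 (7.28%), 6 of 7 in rcDC2 (10.6%) and 5 of 6 in mono (11.7%). In the CD8 types it was 5 of 8 in CD8_01 (6.92%), 5 of 8 in CD8_02 (6.49%) and 4 of 6 in CD8_03 (8.13%). In Th1_01 it was 7 of 8 (8.47%), in Th1_02 4 of 5 (8.69%) and in Th1_03 6 of 8 (9.19%). In Tfh it was 5 of 6 (8.52%) and in Treg 4 of 5 (8.9%). The Ccr7-high types thus held fewer enzymes past 1.5-fold than the remaining types, with mcDC2 at 1.

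Fdps was the enzyme that differed in most places: at least 1.5-fold higher in all 14 types, with every interval above 1. Its ratio ran from 1.67 (1.32 to 2.12) in mLC to 6.22 (3.95 to 10.2) in Treg. In Treg it had 23 and 120 UMIs, or 35.9 and 223 CPM. In rcDC1 it had 142 and 683 UMIs, or 64.6 and 266 CPM (ratio 4.12, 3.44 to 4.97), against 157 and 287 CPM in mcDC1. The control library thus had more Fdps per UMI in mcDC1 than in rcDC1, and the RGX-104 library had levels that lay close together.

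Idi1 was split widely between types. In the control library it stood at 235 CPM in mcDC1, 213 CPM in mLC and 184 CPM in mcDC2, and at 10.5 CPM in rcDC1, 9.27 CPM in rcDC2 and 7.35 CPM in mono. In the RGX-104 library the first 3 stood at 313, 230 and 269 CPM and the last 3 at 45.2, 54.8 and 55.7 CPM. The ratio was 1.08 (0.894 to 1.30) in mLC, 1.33 in mcDC1 and 1.46 in mcDC2. It was 4.32 in rcDC1, 5.91 in rcDC2 and 7.59 in mono, the last from only 4 control UMIs. The T cell types resembled the latter: control levels of 8.07 CPM in CD8_02 to 35.9 CPM in Treg, and ratios of 3.06 in Treg to 7.31 in Th1_01. Even in the RGX-104 library, no compared type outside the Ccr7-high 3 reached their control level of Idi1, the nearest being Treg at 110 CPM.

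Hmgcs1 was at least 1.5-fold higher in 11 of the 14 types, the exceptions being mcDC1 (1.49), mLC (1.30) and mcDC2 (1.07). Its control level was 111 CPM in mcDC1, 141 CPM in mLC and 92.1 CPM in mcDC2, against 24.1 CPM in rcDC1, 16.5 CPM in mono and 5.30 CPM in rcDC2. The ratio of 11.2 (4.22 to 41.8) in rcDC2 came from 4 control and 97 RGX-104 UMIs. In the 8 T cell types its ratio lay between 2.36 in CD8_02 and 3.71 in Tfh, a narrow range with overlapping intervals.

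Pmvk, the second kinase, was at least 1.5-fold higher in 10 types, from 1.14 in mcDC2 to 3.86 in mono (12 and 58 UMIs). Pmvk passed 1.5-fold in mcDC1 (145 and 239 CPM, ratio 1.65) and in mLC (75.5 and 140 CPM, ratio 1.86), where Idi1 did not. Mvd passed 1.5-fold in 9 of the 10 types where it had 20 UMIs, with mcDC2 at 1.41. In rcDC2 Mvd had 1 control and 36 RGX-104 UMIs, giving 16.6 with an interval of 2.79 to 672, and Mvk 1 and 26 UMIs, giving 12 (1.96 to 490). Such ratios fix the direction in these libraries but hardly the size.

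Mvk passed 1.5-fold in 6 of its 10 measured types. In mLC it had 21 and 13 UMIs, or 20.1 and 12.6 CPM, a ratio of 0.628 whose interval (0.289 to 1.31) included 1. Acat2 was measured in 5 types only, and none of its intervals lay off 1. Ggps1 was measured in all 14, passed 1.5-fold in none, and had intervals that all included 1, with ratios from 0.757 in Th1_01 to 1.48 in mLC. Its level pattern across types also ran apart from the others: 18.0 to 25.7 CPM in the 6 APC types of the control library, and 22.0 CPM in Tfh to 81.9 CPM in Th1_01 among T cells.

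**Figure D3:**
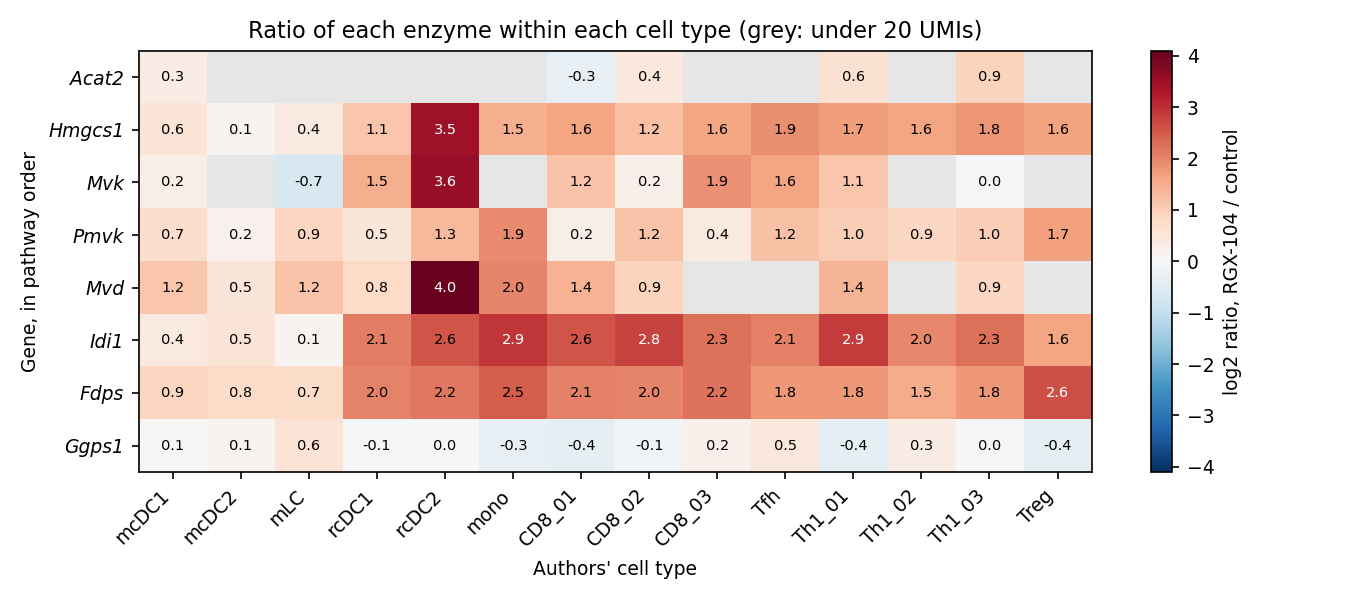
log2 ratio of the RGX-104 to the control library for each enzyme (rows, in pathway order) in each of the 14 cell types (columns), red for higher and blue for lower in the RGX-104 library, with pairs under 20 UMIs in grey. The Fdps row is red throughout, the Idi1 row is pale in mcDC1, mcDC2 and mLC and dark elsewhere, and the Ggps1 row stays near 0.

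Summed over the 3 Ccr7-high types, a grouping made after their values were seen, 3 of 7 measured enzymes were at least 1.5-fold higher against 3.05% of all genes: Pmvk at 1.63, Mvd at 2.09 and Fdps at 1.75. Mvk stood at 18.8 and 18.2 CPM there, a ratio of 0.971. Over rcDC1, rcDC2 and mono it was 6 of 7 against 4.83%, with Idi1 at 5.14, Fdps at 3.89, Mvk at 3.39 and Hmgcs1 at 2.87. Of the regulators, 2 were followed over the same grouping. Srebf2 had a ratio of 1.09 (0.959 to 1.25) in the Ccr7-high types and 1.5 (1.30 to 1.74) in the other 3. Insig1, which retains the SREBP complex in the endoplasmic reticulum, had 1.54 and 3.10. Abca1, the LXR-driven cholesterol exporter, was far higher in both groups, with 8 and 331 UMIs in the Ccr7-high types and 27 and 404 in the others, or 81.6 and 82.7 CPM in the RGX-104 library. Proliferation genes were uneven beside these values: their summed level was 883 and 347 CPM in mcDC2, 393 and 135 CPM in mono, and 939 and 1168 CPM in rcDC1. Their part in the result was not tested.

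Cells differed in depth, so each was thinned to 2000 UMIs, which left out 22 control and 36 RGX-104 APCs and 41 and 27 T cells. At that depth 38.6% (35.1 to 42.1, Clopper-Pearson) of control and 60.7% (57.4 to 63.9) of RGX-104 APCs held a UMI of any of the 8 enzymes. Unthinned, the shares were 72.6% and 89.3%. In T cells the thinned shares were 25.5% (23.6 to 27.4) and 44.5% (42.3 to 46.7), and the unthinned 49.1% and 71.6%. No cell type of the node is known to lack these enzymes, so no background share from free RNA could be set beside these.

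By enzyme, the thinned share of T cells with Idi1 was 2.43% and 11.4%, and with Fdps 4.42% and 14.4%. For Ggps1 it was 10.6% and 10.8%. In APCs Fdps was found in 12.5% and 25.2% of thinned cells and Ggps1 in 5.39% and 4.16%. Thinned T cells with exactly 2 enzyme UMIs were 3.60% and 10.4%, and APCs with exactly 2 were 7.63% and 14.4%. The higher sums were thus spread over many cells: the cell with most UMIs of the 8 held 2.24% of them in control APCs, and less in the other groups.

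**Figure D4:**
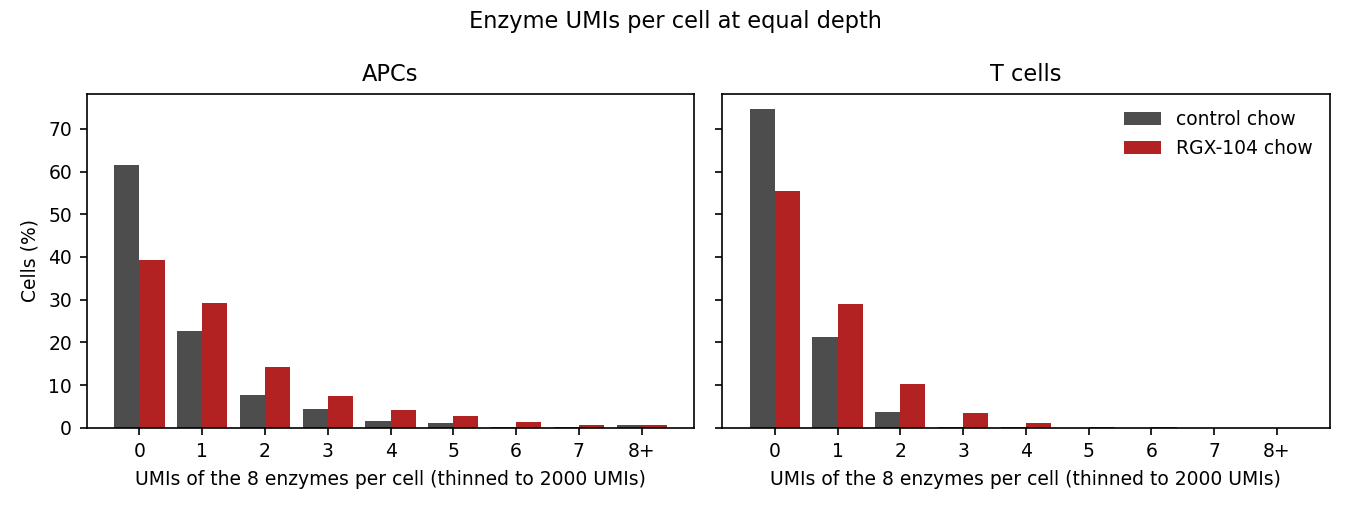
Share of cells (%) by the number of UMIs of the 8 enzymes per cell after each cell was thinned to 2000 UMIs, for APCs and T cells, control in grey and RGX-104 in red. Cells with no such UMI make up 61.4% of control and 39.3% of RGX-104 APCs, and 74.5% and 55.5% of T cells, and red bars are higher at 1 to 4 UMIs in both panels.

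The enzymes were also followed by the cell cycle phase that the authors' table gives each cell. In T cells the summed control level was nearly flat over phases, 142 CPM in G1, 145 in S and 140 in G2M. The RGX-104 library stood at 346, 311 and 344 CPM, with ratios of 2.43, 2.14 and 2.46. Idi1 was 5.95-fold higher in G1 T cells (62 and 341 UMIs) and 3.64-fold in G2M (25 and 111 UMIs). In APCs the ratios were 1.78 in G1, 1.71 in S and 2.24 in G2M. The share of T cells called G1 was 50.8% and 48.6%, of S 38.5% and 39.5%, and of G2M 10.6% and 11.9%. Ube2c and Ccnb1, genes of mitosis, were 2.57- and 2.33-fold higher in RGX-104 T cells. The 16 proliferation genes summed to 560 and 670 CPM in T cells, where 10 had intervals above 1 and 4 were at least 1.5-fold higher against 2.92% of all genes. In APCs none of the 16 was. Their part in the enzyme levels was not tested.

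Of the T cells, 1540 control and 1235 RGX-104 cells were alone in their clonotype by the deposited clone frequency, and 294 and 429 shared it with at least 1 other cell. The summed enzymes were 144 and 338 CPM in the single cells (ratio 2.35) and 131 and 326 CPM in the shared clonotypes (ratio 2.48). Fdps had 20 and 165 UMIs in shared clonotypes, or 14.0 and 75.7 CPM, a ratio of 5.39 (3.38 to 9.06). In single cells it had 24.2 and 95 CPM, a ratio of 3.93 (3.37 to 4.60). These intervals overlap, as do those of the sums. Cells without a clonotype stood at 150 and 302 CPM (ratio 2.01).

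The steps around the 8 enzymes were followed through lists of pathway genes. Of the 12 enzymes from squalene to cholesterol, all measured, 11 were at least 1.5-fold higher in APCs (4.14% of all genes) and 10 in T cells (2.92%), with median log2 ratios of 0.82 and 1.29. Sqle, squalene epoxidase, had ratios of 2.81 in APCs and 4.52 in T cells. Lss, which closes the sterol rings, had 2.25 and 2.45. Ebp, a sterol isomerase, was the exception in both, at 1.09 and 1.0, together with Nsdhl in T cells at 1.41. The median of the squalene list and that of the 8 early enzymes lay close together in APCs and in T cells.

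Of 12 genes of SREBP regulation and sterol uptake, 10 were measured, and 5 were at least 1.5-fold higher in APCs and 7 in T cells, against the same shares. Scap (0.945), Mbtps1 (0.928) and Mbtps2 (0.828), which carry and cut the SREBP precursors, were not among the 5. Srebf2 had 1.27 in APCs and 2.26 in T cells, and Insig1 1.99 and 4.45. Srebf1, itself a known LXR target, had 3.72 and 5.05. Mylip, a ubiquitin ligase driven by LXR, had 2.70 and 2.35. The 4 LXR transport targets were all higher in both groups of cells, with Abca1 at 14.5 in APCs and 8.31 in T cells.

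No gene passed 1.5-fold in the lists for the other branches, where the share over all genes, 4.14% higher and 4.44% lower in APCs and 2.92% and 1.66% in T cells, would also give about none. Of the genes of protein prenylation, which use farnesyl and geranylgeranyl diphosphate, 9 were measured in APCs and 10 in T cells, and none passed 1.5-fold either way. Rce1, a protease for prenylated proteins, was the farthest from 1 in APCs at 0.753. Of 12 genes for dolichol and ubiquinone none passed 1.5-fold either way, with Coq2 at 0.720 in APCs. Of 8 genes of acetyl-CoA supply and neighbouring steps 5 were measured and none passed it. Acly, which makes cytosolic acetyl-CoA from citrate, stood at 1.48 in APCs and 1.15 in T cells, and mitochondrial Acat1 at 0.845 and 0.817. The log2 ratio of Ggps1 was -0.02 in APCs and -0.09 in T cells. Medians were -0.11 and 0.03 for the prenylation genes, and -0.06 and -0.01 for all tested genes. The log2 interval of Ggps1 was -0.32 to 0.28 in APCs and -0.26 to 0.08 in T cells. Both medians lay within it in each, so these values do not place Ggps1 nearer to either.

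Genes whose level across types was most like the summed enzymes were ranked by Pearson's r of log2(CPM + 10) over 28 points, 14 types in 2 libraries. The points share libraries, depth and the chow contrast, so r is a description only. Among 6698 genes with at least 500 UMIs those near the top included Abcg1 (0.92), Fdft1 (0.91), Sqle (0.91) and Msmo1 (0.90). Cyp51 (0.87), Tbc1d20 (0.84), Chchd2 (0.81) and Ilrun (0.80) were lower. Over the 14 control points alone these had r between 0.84 in Cyp51 and 0.95 in Ilrun. Srebf2 was 14th (0.79). Abca1 had r of 0.37 over all points and -0.72 over the control points, where the Ccr7-high types had little of it. Against the sum of the other 7, the enzymes had r of 0.94 (Hmgcs1), 0.91 (Idi1), 0.91 (Mvd), 0.85 (Fdps), 0.80 (Mvk) and 0.77 (Pmvk), with Acat2 at 0.28 and Ggps1 at -0.43.

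Barcodes that the authors left without an annotation, 4465 control and 5727 RGX-104, gave a further view of the same libraries. Their median was 1147 and 1161 UMIs, below that of annotated T cells and APCs, so they are not cells of like depth. Over all of them 6 of 8 enzymes were at least 1.5-fold higher against 4.17% of all genes, and the sum was 190 and 333 CPM (ratio 1.76, 1.67 to 1.84). Those with B cell markers, 1165 and 1540 barcodes, had a median of 2705 and 2713.5 UMIs. Their sum was 206 and 284 CPM (ratio 1.38, 1.27 to 1.5), with 2 of 8 past 1.5-fold against 4.09%. The 2 were Hmgcs1 at 2.08 and Mvd at 2.01. Fdps had 45.7 and 63.0 CPM in these B-lineage barcodes, a ratio of 1.38 (1.15 to 1.66), where every annotated type compared had at least 1.67. Ggps1 stood at 48.2 and 60.6 CPM (ratio 1.26, 1.05 to 1.5), the only interval of Ggps1 above 1 in any group shown. Abca1 was 3.62-fold and Scd2 4.86-fold higher in the same barcodes. The remaining unannotated barcodes, with a median of only 989 and 992 UMIs, had a sum ratio of 1.95 (1.84 to 2.07). In these, 6 of 8 were past 1.5-fold against 4.23%.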

How the data were processed

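RNA was measured in 2 libraries and T cell receptors in 2 further libraries, whose contig tables were not used. The authors deposited UMI counts per gene and barcode. Per the file headers these come from Cell Ranger 5.0.0, while mm10 and Seurat 5.0.3 are named in the submitters' processing notes. The deposited annotation tables give each cell UMI and gene counts, a mitochondrial percent, cell cycle scores and a phase, a cell type and, for T cells, a clone frequency. The score columns were computed by the authors and are unitless. The deposited tables' doublet column names every cell a singlet, and no doublet caller was run here.

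Cells were joined to barcodes by total UMIs, genes over those in at least 3 barcodes, and mitochondrial percent, and each matched exactly 1 barcode. Counts were summed per library and type and divided by the summed total (CPM). Ratios carry exact conditional binomial intervals, CPM exact Poisson intervals, differences in CPM normal intervals from Poisson counts, and shares Clopper-Pearson intervals. With 1 library per chow no test was made. A gene counts as measured with 50 UMIs over both libraries, or 20 in a type. A barcode without an annotation was put in the B-lineage with UMIs of at least 3 B cell markers and no UMI of Cd3d, Cd3e or Cd3g. The 8 genes, the lists and the rule for named genes were chosen with earlier results of these data known. Named genes are the 8, up to 3 per list with the largest ratio, Abca1, Srebf2, Insig1 and the 10 most alike in pattern, and some that this rule names are not reported here. Others were named after their values were seen. Genes were placed on RefSeq GRCm38.p6. Alternatives were TMM factors (edgeR 4.0.16, R 4.3.3), median-of-ratios factors, a total that leaves out antigen receptor, mitochondrial and ribosomal protein genes, per-cell means, thinning, other cell sets and other minimums. Intervals were tested on simulated data. Python 3.11.15 with scipy 1.17.1 was used.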

Additional observations from a re-analysis of the deposited data

How the results depend on the processing

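No paired analysis was possible because each chow has 1 library. The summed enzymes kept their direction in APCs, in T cells and in all 14 types under every alternative run. In APCs the summed log2 ratio was 0.85 and became 1.10 as the mean over types. In T cells it was 1.21 and became 1.64 without Ggps1, an alternative chosen after seeing the data. The count of 6 enzymes higher in APCs was 7 with TMM factors, with median-of-ratios factors and with thinned cells, and 5 with per-cell means. Counted at 2-fold, 2 enzymes were higher in APCs where 6 were at 1.5-fold. The same threshold left 4 of 11 squalene-to-cholesterol genes and 0 of 1 stress gene higher in APCs, and in T cells 2 of 4 proliferation genes higher and 1 of 3 stress genes lower. The 10 stress genes summed to 2625 control and 2023 RGX-104 CPM in T cells, and to 3780 and 3462 CPM in APCs. In T cells 3 of the 8 measured were at least 1.5-fold lower, against 1.66% of all genes. Their part in the enzyme levels was not tested. With per-cell means the summed log2 ratio of the enzymes was 0.67 in mLC and 1.26 in Treg, where sums gave 0.46 and 1.56. With cells thinned to 2000 UMIs it was 0.73 in mcDC2, 1.53 in rcDC2, 0.80 in CD8_03 and 2.23 in Tfh, where all counts gave 0.40, 1.89, 1.14 and 1.57. Thinning keeps fewer UMIs, and no other cause was tested. As the mean over APC types, which weights each type equally, the log2 ratio of Idi1 was 1.44 where the sum gave 0.60, Mvk 1.16 and 0.53, Hmgcs1 1.20 and 0.73, and Mvd 1.61 and 1.10. Acat2 in APCs ran from 0.32 to 1.60 over alternatives, and Ggps1, at -0.02, from -0.37 to 0.06. Depth limits Acat2, Mvk and Mvd within types most.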

Other observations

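Types with under 50 cells in a library were not compared, and their values are given here alone. The T cells named IFN-responsive, 39 control and 70 RGX-104 cells, had the enzymes at 126 and 540 CPM, a ratio of 4.30 (2.85 to 6.74), past that of every T cell type compared. The gd T cells (65 and 37 cells) stood at 137 and 450 CPM (ratio 3.29, 2.31 to 4.73), and Cytotoxic T (16 and 44 cells) at 201 and 465 CPM. Bcat1+ T, with 30 and 58 cells, had the smallest ratio of the T cell types, 1.46 (1.12 to 1.91). Among APCs, cells named pDC stood at 198 CPM in 53 control cells and 901 CPM in 9 RGX-104 cells, the latter from 66 UMIs. Cells named pre-DC2 (24 and 21) stood at 241 and 889 CPM (ratio 3.69, 2.72 to 5.08). Macrophages (27 and 52 cells) had 140 and 296 CPM, a ratio of 2.11 (1.34 to 3.50). Over all 22 named types, 21 had an interval of the summed ratio above 1, the exception being Gm26917+ mcDC at 1.26 (0.623 to 2.83) with 12 and 32 cells.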
